A study of Mus musculus with 9 samples.

Results

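Retinoic acid is a small lipid made from vitamin A that acts as a local signal in the embryonic eye. The genes described here are the 9 that make it (Aldh1a1, Aldh1a2, Aldh1a3), break it down (Cyp26a1, Cyp26c1), bind it in the cytoplasm (Crabp1, Crabp2) or receive it in the nucleus (Rara, Rarb). They were taken by symbol from both deposited expression tables, of 12388 gene symbols in all. Of the 9 genes, 8 were listed in both tables. Aldh1a2 was listed in neither, and its level was not analysed here.

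CD-1 mouse embryos were the source of the retinal RNA, at E12.5, when most retinal cells are dividing progenitors and the earliest retinal ganglion cells are being born. The 3 groups differ at Neurog2, the gene of a factor that drives progenitors to become neurons, and each group has 3 samples. Heterozygotes are Neurog2GFP/+, with GFP at one allele. Mutants are Neurog2GFP/GFP, with GFP at both, and knock-ins are Neurog2GFP/Mash1KI, with GFP at one allele and a Mash1 knock-in at the other. All 3 groups therefore carry at least one GFP allele, and no group has both Neurog2 alleles intact. Whole GFP-positive optic cups were dissected in pairs and dissociated, with no cell sort named, so tissue attached to the cup can be in a sample.

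In the retina, ALDH1A enzymes oxidise retinaldehyde to retinoic acid. Aldh1a1 is known as the enzyme of the dorsal retina and Aldh1a3 as that of the ventral retina, while enzymes of the CYP26 family destroy retinoic acid in a band between them. CRABP proteins carry retinoic acid inside the cell, and retinoic acid receptors (RARs) bind it on DNA together with retinoid X receptors (RXRs). Rarb and Cyp26a1 are themselves well-known targets of this signal, through a retinoic acid response element made of a pair of direct repeats.

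That element is in the reference sequence just upstream of both genes, shown here because both are well-known targets through this element. Promoter windows from RefSeq (GRCm38.p6, 250 bases before to 50 after a start site) were held for 7 of the 9 genes, in 11 windows. Aldh1a3 and Crabp2 had none and were not searched. They were searched on both strands for a pair of half-sites in the same orientation, each AGGTCA or AGTTCA or GGTTCA or GGGTCA, with 5, 2 or 1 bases between them (called DR5, DR2 and DR1). Each of the 2 sequences below is the 100 bases that end just before the start site, on the strand of the gene, with the DR5 in capitals.

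Rarb, chr14:16575477-16575576, minus strand: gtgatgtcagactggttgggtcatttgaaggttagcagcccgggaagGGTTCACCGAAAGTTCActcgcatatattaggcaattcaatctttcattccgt

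Cyp26a1, chr19:37697708-37697807, plus strand: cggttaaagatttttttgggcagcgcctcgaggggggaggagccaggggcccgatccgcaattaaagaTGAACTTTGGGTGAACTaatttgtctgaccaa

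The Rarb repeat lies 53 to 37 bases upstream of its start site and reads in the direction of the gene. The Cyp26a1 repeat lies 32 to 16 bases upstream and reads on the opposite strand, as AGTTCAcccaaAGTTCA. A DR5 of these half-sites was in 0.0974% of all 32851 windows, a DR2 in 0.268% and a DR1 in 0.222%. None of the 3 repeats was found in the windows of Aldh1a1, Aldh1a2, Crabp1, Cyp26c1 or Rara, which says only that these letters are not in those windows. The start sites of the Rara windows lay 9878 to 37054 bases inside the locus listed for that gene, so the start of that locus was not searched. For Aldh1a1, a start site lay 7 bases into the listed locus and the other lay upstream of it. A match is a description of the reference sequence.

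The files give one value per transcript and group, pooled over the 3 samples by the authors, so no value per sample and no spread between samples can be printed, and the depth is unknown. Values are RPKM, that is reads scaled to transcript length and to the mapped reads of the library, so levels of different genes can be compared. Values of a gene's listed transcripts were added up to its summed RPKM. The test is the authors' own for each transcript, made by Cuffdiff, and a transcript is called here where its q (the p-value adjusted over all transcripts of the table) is 0.05 or less. The summed values have no test of their own. Separate litters are not named in the labels, so the test measures only the spread between these samples. The mutant group is in both tables, which were normalized separately. For all 8 genes the summed mutant value of the second table was 0.981 of that in the first.

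The groups are named by their labels. Neurog2 was at 30.2 RPKM in heterozygotes and 36.2 RPKM in mutants, and in the second table at 35.5 RPKM in mutants and 112 RPKM in knock-ins. These values do not separate coding from untranslated sequence, so they do not check the loss of the coding part. Sample titles carry one number for heterozygotes and mutants and another for knock-ins. If it marks a litter or a batch, it cannot be told apart from the knock-in. Sex differed as well. Of 4 Y-linked genes, all were at 0.017 RPKM or less in mutants and at 3.48 RPKM or more in heterozygotes and 8.81 RPKM or more in knock-ins. Xist, also sex-linked, summed to 184 RPKM in heterozygotes and 505 RPKM in mutants, and to 496 and 174 RPKM in mutants and knock-ins of the second table. Sex therefore cannot be told apart from genotype wherever mutants differ from another group, Crabp1 and Crabp2 included. Of 10 retinal progenitor markers, all were listed and stood at 33.9 RPKM or more in heterozygotes, which fits the labelled tissue.

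Levels spanned a wide range. Aldh1a1 was the most abundant of the 8 genes in every group, at 916 RPKM in heterozygotes, which was position 111 of 12247 genes in order of level. Crabp1 and Crabp2 were next, at positions 127 and 298 in heterozygotes. Cyp26a1, Aldh1a3 and Rara were between 10.8 and 32.2 RPKM in every group, and Rarb and Cyp26c1 between 1.59 and 2.85 RPKM. The last 2 genes are near the lower limit of the tables, which hold no transcript under 0.906 RPKM (first table) or 1.04 RPKM (second table) in its higher group.

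**Figure D1:**
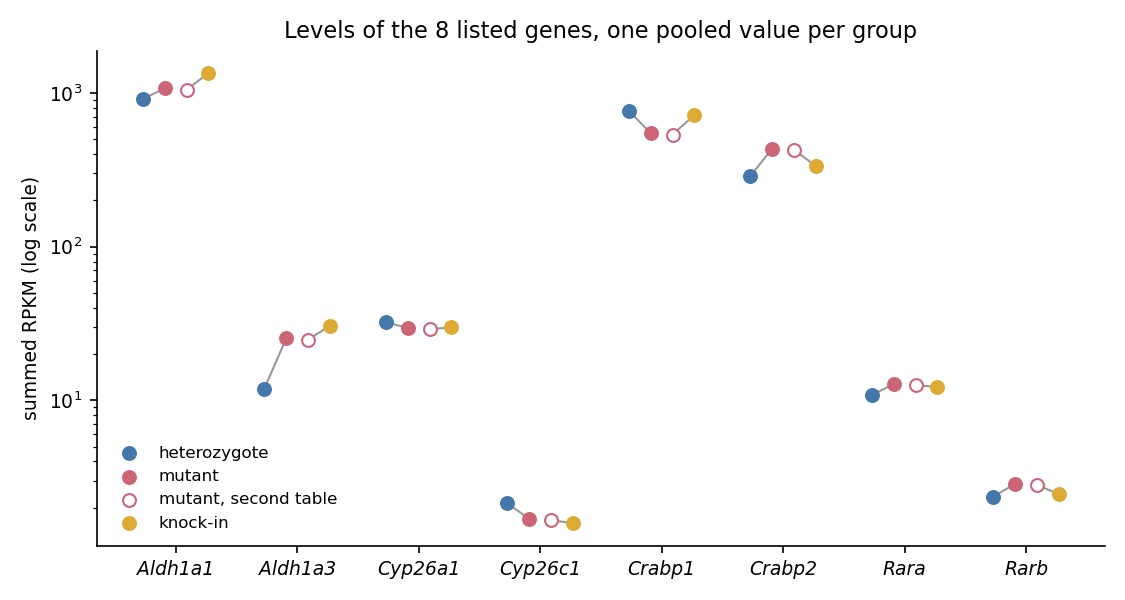
Summed RPKM (log axis) of the 8 listed genes. Each point is one pooled group value without an error bar, filled red for mutants in the first table and open red in the second, and lines join values of one table. Crabp1 was lower and Crabp2 higher in mutants than in both other groups, while the genes keep levels from 1346 RPKM for Aldh1a1 in knock-ins down to 1.59 RPKM for Cyp26c1 there.

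Among the enzymes of synthesis, Aldh1a1 (mm10 chromosome 19, 20601961 to 20643462, plus strand, 13 exons) was the main form. It was at 916 RPKM in heterozygotes and 1072 RPKM in mutants, a log2 ratio of 0.23. In the authors' deposited table this difference had p = 0.283 and q = 0.993. It was at 1052 RPKM in mutants of the second table and 1346 RPKM in knock-ins, a log2 ratio of 0.36, with p = 0.0814 and q = 0.783 in the authors' deposited table. Aldh1a1 was thus lowest in heterozygotes and highest in knock-ins, and neither step passed the test.

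Aldh1a3 (chromosome 7, 66390892 to 66427517, minus strand, 13 exons) had 3 listed transcripts, whose sum was 11.9 RPKM in heterozygotes and 25.3 RPKM in mutants, a ratio of 2.12. In the second table it was 24.8 RPKM in mutants and 30.6 RPKM in knock-ins, a ratio of 1.23. As a sum, this was the widest ratio of the 8 genes between mutants and heterozygotes, and no Aldh1a3 transcript was called. With the transcript of highest level over both groups alone, the log2 ratio was 0.50 against 1.09 for the sum, below the 0.59 of Crabp2. The transcripts were matched between the tables by the order of their mutant values. The one most abundant in mutants was at 2.63 RPKM in heterozygotes and 13.5 RPKM in mutants, with p = 0.0547 and q = 0.991 in the authors' deposited table. The next was at 8.35 and 11.8 RPKM. The remaining transcript was at 0.948 RPKM in heterozygotes, 0.00780 RPKM in mutants and 9.56 RPKM in knock-ins, where it made up 31.3% of the sum. The last step had p = 0.252 in the authors' deposited table. The split of Aldh1a3 over its transcripts thus had other values in each group, with no test of that split. The direction from mutants to knock-ins depended on which transcripts were counted, since the most abundant alone was at 13.3 and 11.7 RPKM.

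**Figure D2:**
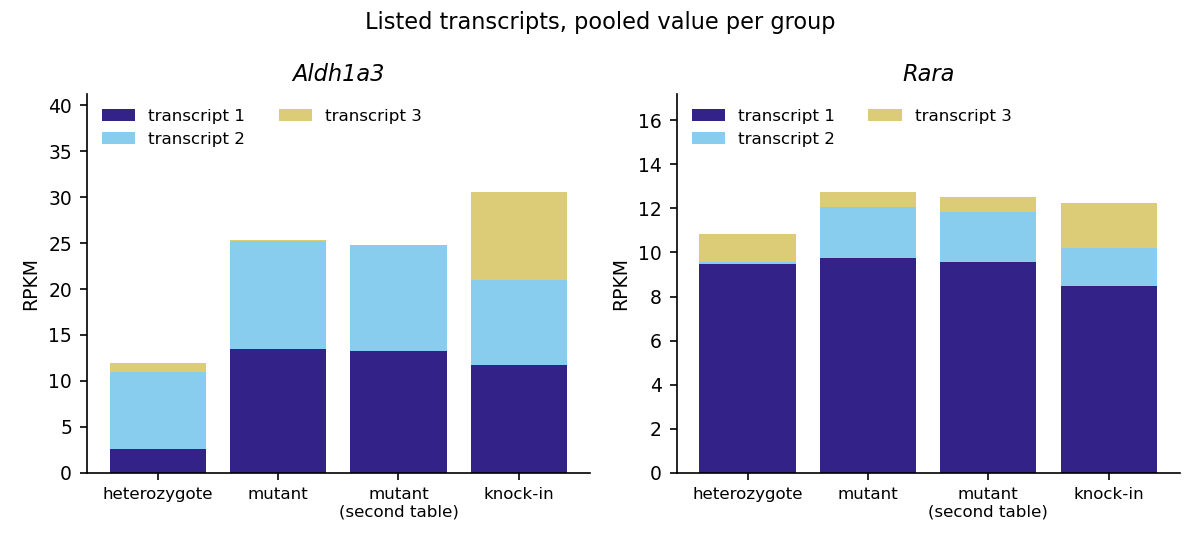
RPKM of the 3 listed transcripts of Aldh1a3 (left) and of Rara (right), stacked, in each group and table, with no error bars because the values are pooled. The sum of Aldh1a3 was 11.9 RPKM in heterozygotes and 25.3 RPKM in mutants with different transcripts contributing, while Rara kept one main transcript at 8.49 to 9.75 RPKM.

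In every group Aldh1a1 far exceeded Aldh1a3. Aldh1a1 made up 98.7% of the sum of both in heterozygotes, 97.7% in mutants and 97.8% in knock-ins. The sum was 928 RPKM in heterozygotes and 1097 RPKM in mutants. The second table gave 1077 RPKM in mutants and 1376 RPKM in knock-ins.

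Of the enzymes of breakdown, Cyp26a1 (chromosome 19, 37697808 to 37701528, 7 exons) and Cyp26c1 (chromosome 19, 37685581 to 37693398, 6 exons) lie side by side on the plus strand, 4409 bases apart. Cyp26a1, which is also a target of retinoic acid through the DR5 above, showed little difference between groups. It was at 32.2 RPKM in heterozygotes and 29.6 RPKM in mutants, then at 29.1 RPKM in mutants of the second table and 29.8 RPKM in knock-ins. In the authors' deposited table the steps had p = 0.457 and p = 0.815. Cyp26c1 was at 2.14 RPKM in heterozygotes and 1.69 RPKM in mutants, and at 1.66 and 1.59 RPKM in the second table, with p = 0.247 and p = 0.842 in the authors' deposited table. Cyp26a1 exceeded Cyp26c1 in every group, by a ratio of 15.0 in heterozygotes, 17.5 in mutants and 18.8 in knock-ins.

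The smallest p-values of the 8 genes were those of the cytoplasmic binding proteins, with ratios of opposite sign. Crabp2 (chromosome 3, 87948666 to 87953376, plus strand, 4 exons), whose protein hands retinoic acid to its receptors, rose from 288 RPKM in heterozygotes to 435 RPKM in mutants. This is 1.51-fold, a log2 ratio of 0.59, with p = 5e-05 and q = 0.0109 in the authors' deposited table, the smallest p and q that it holds and shared by 125 transcripts. In the second table Crabp2 was at 427 RPKM in mutants and 335 RPKM in knock-ins, a log2 ratio of -0.35. That step missed the threshold, with p = 0.0122 and q = 0.380 in the authors' deposited table.

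Crabp1 (chromosome 9, 54764748 to 54773110, plus strand, 4 exons), whose protein binds retinoic acid and is linked to limiting its supply to the nucleus, went the other way. It was at 768 RPKM in heterozygotes and 547 RPKM in mutants, a log2 ratio of -0.49, with p = 0.00125 and q = 0.132 in the authors' deposited table. In the second table it was at 537 RPKM in mutants and 721 RPKM in knock-ins, a log2 ratio of 0.43, with p = 0.0029 and q = 0.175 in the authors' deposited table. Neither step passed the threshold. For scale, 0.945% and 1.66% of all transcripts in the respective tables had a p as small as that of Crabp1. In bulk tissue, fewer cells of a type and less RNA per cell cannot be told apart.

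The balance of the pair differed between groups while its sum differed little. Crabp1 was at 2.67 times the level of Crabp2 in heterozygotes, 1.26 times in mutants and 2.15 times in knock-ins. Their sum was 1056 RPKM in heterozygotes and 982 RPKM in mutants, while the second table gave 963 RPKM in mutants and 1056 RPKM in knock-ins. The quotient and the sum were computed from pooled values and have no test.

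Of the receptors, Rara (chromosome 11, 98927818 to 98974942, plus strand, 10 exons) was 4.47 to 4.98 times as abundant as Rarb. Its 3 listed transcripts summed to 10.8 RPKM in heterozygotes and 12.8 RPKM in mutants, and in the second table to 12.51 RPKM in mutants and 12.25 RPKM in knock-ins. Its main transcript was at 9.46 and 9.75 RPKM, then at 9.56 and 8.49 RPKM. A minor one was at 0.106 RPKM in heterozygotes and 2.32 RPKM in mutants, with p = 0.266 in the authors' deposited table. Rarb (chromosome 14, 16430842 to 16575472, minus strand, 8 exons), a receptor gene that retinoic acid itself induces, was at 2.36 RPKM in heterozygotes and 2.85 RPKM in mutants. In the second table it was at 2.80 and 2.46 RPKM. In the authors' deposited table the Rarb steps had p = 0.219 and p = 0.405. The listed locus ends 4 bases from the start site of the promoter window above. Rarb and Cyp26a1, the 2 of the 7 searched genes with a DR5, had log2 ratios of 0.27 and -0.12 between mutants and heterozygotes, and of -0.19 and 0.04 between knock-ins and mutants.

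Counted together, 1 of the 8 listed genes (Crabp2) was called higher and 0 lower in mutants against heterozygotes. In that table, of all 12247 genes, 0.245% were called higher and 1.09% lower. The median log2 ratio of the 8 genes was 0.23, with 5 higher and 3 lower, against 0.03 over all genes, of which 54.7% were higher. Between knock-ins and mutants 0 of 8 were called in either direction, where 1.03% of 11989 genes were called higher and 0.634% lower. Their median log2 ratio was 0.00, with 4 higher and 4 lower, and that over all genes was -0.00. At an unadjusted p under 0.05 by the same Cuffdiff test, 2 of 8 stood out in each comparison, Crabp1 and Crabp2 both times, against 10.9% and 14.6% of all genes. The comparisons share the mutant samples, so opposite signs in the 2 tables are not independent of each other.

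The rest of the pathway showed no called gene. Of 63 further genes in 5 lists (retinol supply, other enzymes and carriers, other receptors, receptor coregulators, known targets), 39 were listed in the first table and 39 in the second, and none was called in either. Of all genes, 0.245% were called higher and 1.09% lower in the first, and 1.03% and 0.634% in the second. At an unadjusted p under 0.05 by the Cuffdiff test there were 3 and 7 of the 39, against 10.9% and 14.6% of all genes. The median log2 ratio of the listed pathway genes was 0.16 in mutants against heterozygotes and -0.06 in knock-ins against mutants. Over all genes it was 0.03 and -0.00.

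Retinol supply covers the uptake, storage and initial oxidation of vitamin A, with 12 of 25 genes listed in the first table. Adh5, an alcohol dehydrogenase gene, summed to 108 RPKM in heterozygotes and 126 RPKM in mutants, and in the second table to 123 RPKM in mutants and 109 RPKM in knock-ins. Its most abundant transcript did not follow the sum. That transcript was at 58.2 RPKM in heterozygotes and 57.3 RPKM in mutants. In the second table it was at 56.2 RPKM in mutants and 75.6 RPKM in knock-ins (p = 0.04885, q = 0.705 by Cuffdiff in the authors' deposited table). Stra6, the membrane receptor through which cells take up retinol, was at 24.9 RPKM in heterozygotes and 35.3 RPKM in mutants (smallest p = 0.0707 in the authors' deposited table), and at 35.97 RPKM in knock-ins. Of the 12 genes 9 had higher sums in mutants than in heterozygotes, against 54.7% of all genes, and 0 had an unadjusted Cuffdiff p under 0.05. Ttr, a retinol transport gene that is also in the list of pigment epithelium markers, was listed in the second table alone, at 0.358 RPKM in mutants and 2.75 RPKM in knock-ins, a log2 ratio of 2.94 (p = 0.0540, q = 0.727 in the authors' deposited table). It was named after its values were seen, and the pigment epithelium list is described with the other markers.

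Among other enzymes and carriers, Cyp1b1, a cytochrome that can also make retinoic acid, was at 15.1 RPKM in heterozygotes and 20.7 RPKM in mutants. Its log2 ratio was 0.45, with p = 0.0033 and q = 0.248 in the authors' deposited table, short of the threshold. In knock-ins it was at 24.2 RPKM. Fabp5, a fatty acid carrier that can deliver retinoic acid to another nuclear receptor, was at 200 and 191 RPKM, then at 187 RPKM in mutants of the second table and 236 RPKM in knock-ins (p = 0.0194, q = 0.480 in the authors' deposited table). The gene of that receptor, Ppard, was at 3.83 RPKM in heterozygotes and 6.77 RPKM in mutants, and at 6.65 and 5.66 RPKM in the second table. None of these passed the test.

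Of the RXR partners, Rxrb was at 14.6 and 15.3 RPKM in heterozygotes and mutants and Rxra at 7.65 and 8.71 RPKM. In the second table they were at 15.0 and 16.1 RPKM and at 6.63 and 6.78 RPKM; for Rxra a different number of transcripts was listed there. All 16 coregulators were listed. The most abundant were the corepressor gene Ncor1 (171 and 207 RPKM in heterozygotes and mutants), the coactivator gene Ep300 (86.1 and 93.7 RPKM) and the Mediator gene Med1 (76.2 and 74.0 RPKM). The median log2 ratio of the coregulators was 0.07 in mutants against heterozygotes and -0.09 in knock-ins against mutants.

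Of 18 known targets of retinoic acid outside the 9 genes, 10 were listed in the first table. Their median log2 ratio was 0.26, with 8 higher and 2 lower, and 0 had an unadjusted Cuffdiff p under 0.05. Over all genes the median was 0.03 and 54.7% were higher. In the second table the median of 9 listed targets was 0.06. Among the most abundant were Meis1 (83.7 and 95.6 RPKM) and Nr2f1, an orphan nuclear receptor gene, at 46.1 RPKM in heterozygotes and 67.8 RPKM in mutants. Nr2f1 was at 65.7 RPKM in mutants of the second table and 43.9 RPKM in knock-ins, with a smallest q of 0.993 and 0.697 in the authors' deposited tables.

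**Figure D3:**
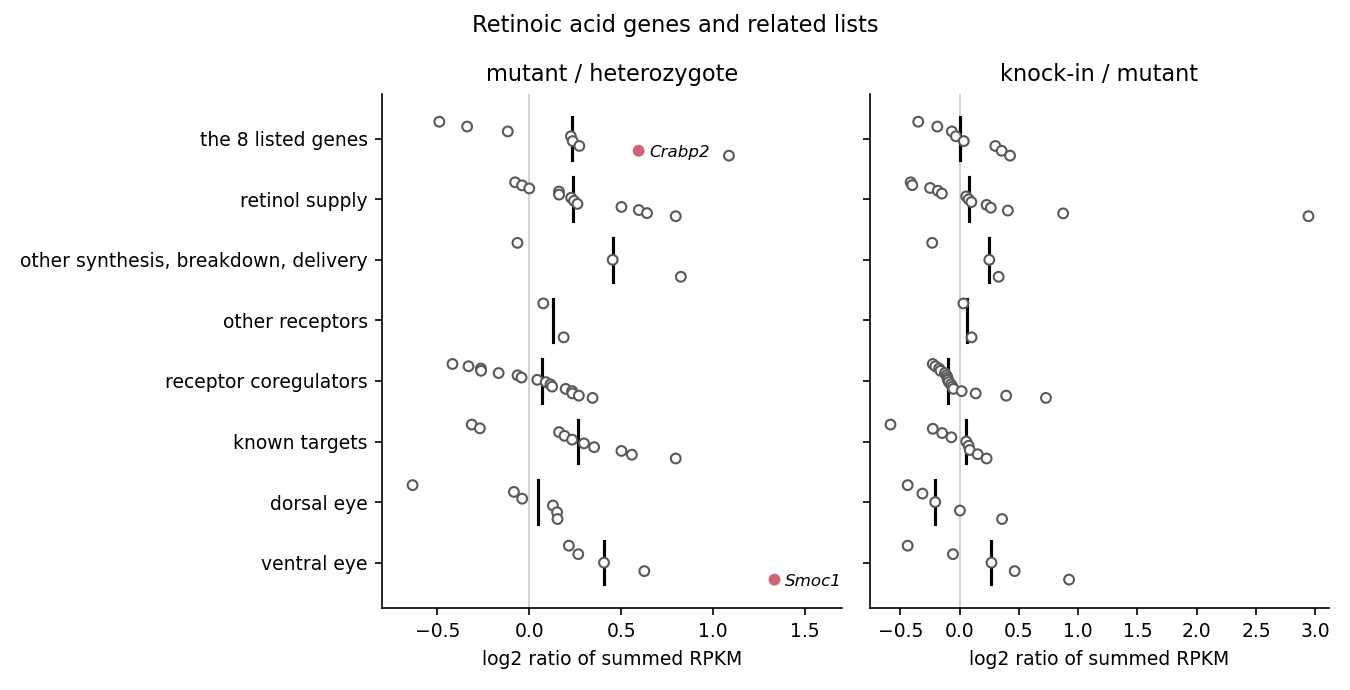
Log2 ratios of summed RPKM in mutants over heterozygotes (left) and knock-ins over mutants (right) for the 8 listed genes and for 7 lists, one point per listed gene, with a bar at each median. Red points mark called genes, Crabp2 among the 8 genes and Smoc1 in the ventral list, both in the left panel.

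Because Aldh1a1 marks the dorsal and Aldh1a3 the ventral retina, genes of those regions were set beside them. Both lists were chosen with earlier results of these data known, so their directions and calls are a description only. Over all genes in mutants against heterozygotes, the median log2 ratio was 0.03, 54.7% were higher and 0.245% were called higher. Of 5 listed ventral genes, all had higher sums in mutants than in heterozygotes, with a median log2 ratio of 0.41. Smoc1, which encodes a secreted matrix protein, was the one called, at 7.68 RPKM in heterozygotes and 19.3 RPKM in mutants, with q = 0.0109 in the authors' deposited table. Vax2, the transcription factor that specifies ventral retina, was at 27.6 and 42.6 RPKM (p = 0.0024, q = 0.204 in the authors' deposited table), Ephb2 at 26.2 and 30.4 RPKM and Bmpr1b at 8.62 and 11.4 RPKM. Of 6 dorsal genes 3 were higher and 3 lower, with a median of 0.04. Efnb2 was at 97.5 and 94.9 RPKM, Tbx3 at 25.5 and 28.3 RPKM and Tbx2 at 12.3 and 13.7 RPKM. Aldh1a3 thus stood at a log2 ratio of 1.09 as a sum, beside a ventral median of 0.41, and at 0.50 with its most abundant transcript alone. Aldh1a1 stood at 0.23 beside a dorsal median of 0.04. In knock-ins against mutants the ventral median was 0.27 and the dorsal median -0.21, with no Cuffdiff call in either list. Of 5 listed ventral genes 1 had a transcript at an unadjusted p under 0.05, and of 5 listed dorsal genes 3 did. Of all genes 14.6% had such a p. Tbx3 was among these dorsal genes through a transcript at 8.55 and 2.83 RPKM, while its sum was 27.74 RPKM in mutants and 27.81 RPKM in knock-ins. In the same comparison Aldh1a3 was at 0.30 as a sum and at -0.18 with its most abundant transcript alone. Aldh1a1 was at 0.36, opposite in sign to the dorsal median.

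Markers of cell types moved between groups as well, and their part in the values above was not tested. Of all genes in mutants against heterozygotes, 54.7% were higher, 0.245% were called higher, 1.09% were called lower and 10.9% had an unadjusted p under 0.05. In knock-ins against mutants 49.7% were higher, with 1.03% called higher and 0.634% lower. In mutants all 14 listed markers of ganglion cells and neurons had lower sums than in heterozygotes, with 9 called. Their summed level was 1051 RPKM in heterozygotes and 510 RPKM in mutants, and their median log2 ratio of -1.09 was further from 0 than the -0.49 of Crabp1. In the second table all 14 were higher in knock-ins, with 2 called, and their sum was 500.0 RPKM in mutants and 684 RPKM in knock-ins. All 10 progenitor markers had higher sums in mutants, from 0.03 to 0.43 on the log2 scale with a median of 0.29, none called and 3 at an unadjusted Cuffdiff p under 0.05. Crabp2, at 0.59, lay above that range. In knock-ins against mutants 5 of these 10 were higher and 5 lower.

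Tissue around the retina differed mostly between knock-ins and mutants, where 1.03% of all genes were called higher and 0.634% lower. Of pigment epithelium markers, 10 of 12 were listed and all were higher in knock-ins, with 7 called, and their sum was 24.4 RPKM in mutants and 113 RPKM in knock-ins. Lens markers (10 of 12 listed) summed to 49.8 and 161 RPKM, with 3 called, and blood genes (7 of 9 listed) to 35.1 and 131 RPKM, with 2 called. Mesenchyme around the eye, where Aldh1a2 and Rarb are known to be made, had 6 of 11 markers listed, which summed to 19.4 RPKM in mutants and 33.4 RPKM in knock-ins, with 2 called. Rarb was at 2.80 RPKM in mutants and 2.46 RPKM in knock-ins (p = 0.405 by Cuffdiff in the authors' deposited table), near the lower limit, and Aldh1a2 was not listed. The part of this tissue in the values was not tested. In mutants against heterozygotes none of these 4 lists had a Cuffdiff call (at an unadjusted p under 0.05 there were 5, 2, 1 and 1 in the order of pigment epithelium, lens, blood and mesenchyme), and 3 mesenchyme markers were listed. Their median log2 ratios in that order were 0.53, -0.47, -0.51 and -0.52. The lens, blood and mesenchyme medians were near the -0.49 of Crabp1, but not all genes of these lists were lower. Of 5 listed blood genes 2 were higher and 3 lower, and their sum was 30.8 RPKM in heterozygotes and 34.8 RPKM in mutants. Of the 3 mesenchyme markers 1 was higher and 2 lower, and of 8 lens markers 2 were higher and 6 lower. Immediate early and stress genes summed to 163 RPKM in mutants and 47.8 RPKM in knock-ins, with 7 of 8 called lower, and 1 was called lower in mutants against heterozygotes. Endothelial (2 of 5 listed), macrophage (1 of 4) and surface ectoderm genes (2 of 5) had 1 call in all, a surface ectoderm gene higher in knock-ins. Of 4 listed genes of optic stalk and ciliary margin, 1 was called higher in knock-ins.

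**Figure D4:**
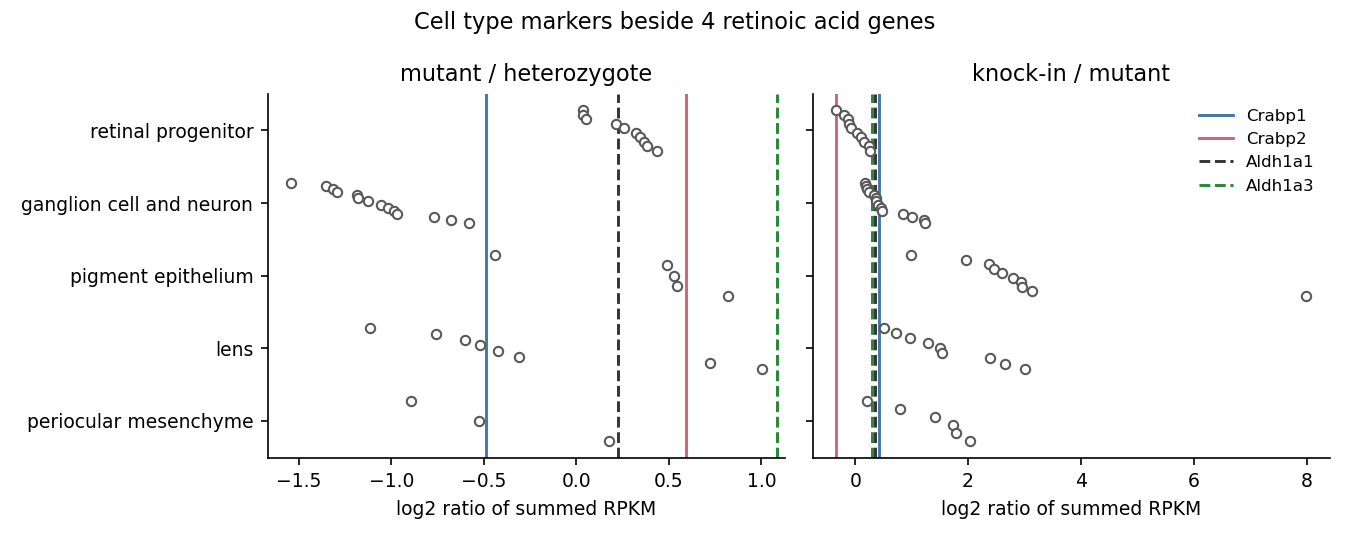
Log2 ratios of summed RPKM for markers of 5 cell types, one point per listed marker, in mutants over heterozygotes (left) and knock-ins over mutants (right). Vertical lines give the ratios of Crabp1, Crabp2, Aldh1a1 and Aldh1a3. Crabp1 lies on the side of the neuronal markers in both panels (-0.49 and 0.43), and Crabp2 on the other side (0.59 and -0.35). All 14 listed neuronal markers were lower in mutants than in heterozygotes, with 9 called, and all were higher in knock-ins than in mutants, with 2 called. Of the listed lens markers, 6 were lower and 2 higher in mutants than in heterozygotes, with 0 called. All 10 were higher in knock-ins than in mutants, with 3 called. Of all genes, 54.7% were higher and 1.09% called lower in mutants against heterozygotes. In knock-ins against mutants 49.7% were higher and 1.03% called higher. Which cell type the Crabp1 ratios come from was not tested. The lens gene Foxe3, listed at 0 in mutants of the second table, has no ratio and is not drawn, and the point at 7.99 is Mitf.

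Knock-ins can be set against heterozygotes across the tables by adding the 2 log2 ratios of a gene, which makes the mutant value the common level. There is no test for this contrast. Crabp1 came to -0.06 and Crabp2 to 0.25, so that Crabp1 in knock-ins was close to its heterozygote level and Crabp2 lay between its heterozygote and mutant levels. The synthesis enzymes came to 0.58 (Aldh1a1) and 1.39 (Aldh1a3). For Aldh1a3 this value holds for the sum of its transcripts, since its knock-in to mutant log2 ratio was 0.30 as a sum and -0.18 with the most abundant transcript alone. The breakdown enzymes were at -0.08 (Cyp26a1) and -0.40 (Cyp26c1), and the receptors at 0.20 (Rara) and 0.08 (Rarb). Of the 8 genes 5 were higher and 3 lower, with a median of 0.14, against 0.03 over 11791 genes.

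For Crabp2, the one called gene, the genes with the most similar pair of ratios were looked up among 8803 genes with 5 RPKM or more in at least 1 group of each table. A gene can pass that minimum through the mutants alone, as Akr1b10 did. The 3 closest were Efhd1 (10.2 RPKM in heterozygotes, 15.2 RPKM in mutants, 11.8 RPKM in knock-ins), Akr1b10 (4.45, 6.66 and 4.61 RPKM) and Fndc4 (20.4, 30.4 and 23.1 RPKM). They lay within 0.0195 to 0.0292 of Crabp2 on the log2 scale, none was called, and 30 genes lay within 0.1. With 3 pooled groups, such likeness rests on 2 ratios only.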

How the data were processed

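RNA-seq of 9 retina samples was used as 2 tables, mutant against heterozygote (27311 transcripts) and knock-in against mutant (26586). The submitters' processing notes name mm10 and the tools Bowtie2, Cufflinks and Cuffdiff, whose versions the sources used here do not give. Per the file headers, the authors deposited one RPKM value per transcript and group, pooled over replicates. The deposited p-values and q-values are the authors'; recomputed Benjamini-Hochberg values differed from the q-values by at most 5.26e-07. The adjustment was tested on simulated data. The lower limits on RPKM are those seen in the tables.

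Genes were joined by symbol with Python 3.11.15 and pandas 2.3.3; 173 and 172 transcripts carried no symbol or a date in its place. A gene was called if any of its transcripts had a q of 0.05 or less. Log2 ratios used summed RPKM with no pseudocount. Starts were shifted by 1 to count from base 1, as in GENCODE M21, the source of exon numbers (principal transcript) and strand. The 9 genes and all lists were chosen with earlier results of these data known. Named genes are the 9, called members of the 7 pathway lists, the 3 most abundant uncalled members of each, and the 3 genes closest to a called one; a result this rule selects is not reported here. Alternatives were other q thresholds, other sets for the adjustment, pseudocounts, median scaling and single transcripts.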

Additional observations from a re-analysis of the deposited data

How the results depend on the processing

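The count of called genes among the 8 listed was 1 (Crabp2) in mutants against heterozygotes and 0 in knock-ins against mutants under each of 4 alternatives: q of 0.10 or less, q of 0.02 or less, adjustment over transcripts with 1 RPKM or more in both groups, and the most abundant transcript of each gene alone. Over these, the adjusted p of Crabp1 by Benjamini-Hochberg ranged from 0.0633 to 0.132 in mutants against heterozygotes and from 0.0887 to 0.175 in knock-ins against mutants. In the 7 pathway lists, 1 gene (Smoc1, lower) was called in knock-ins against mutants at q of 0.10 or less and with the most abundant transcript alone, against 0. Genes called higher over the whole first table were 17 at q of 0.02 or less against 30, and over the second 193 at q of 0.10 or less against 124. Of 96 values of single genes under alternatives, 1 changed sign, that of Aldh1a3 between knock-ins and mutants, at -0.18 with its most abundant transcript alone against 0.30. In mutants against heterozygotes the most abundant transcript alone gave 0.50 against 1.09 for Aldh1a3 and 0.04 against 0.24 for Rara, and in knock-ins against mutants -0.17 against -0.03 for Rara. For Aldh1a3 this was a different transcript in each table. Leaving out transcripts under 1 RPKM in both groups gave 1.20 for Aldh1a3 in mutants against heterozygotes. Adding 1 RPKM gave -0.22 against -0.34 for Cyp26c1 in mutants against heterozygotes. Adding 1 RPKM to every group brought the knock-in to heterozygote log2 ratio of Cyp26c1 to -0.26 from -0.40. No paired analysis was possible because the files hold one pooled value per group, and for the same reason no replicate could be left out. The depth is unknown, so no counting error can be given for genes near 1 RPKM such as Rarb and Cyp26c1.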
